A study of Arabidopsis thaliana with 23 samples.

Results

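The genes described are the WRKY transcription factors and the zinc finger STZ in Arabidopsis root cells. They were taken as every probe set whose only annotated gene symbol is WRKY followed by a number, plus the probe set for STZ. This gave 7 probe sets, 1 for each gene, among 22746 on the array that are not controls: WRKY6 (AT1G62300), WRKY20 (AT4G26640), WRKY22 (AT4G01250), WRKY42 (AT4G04450), WRKY47 (AT4G01720), WRKY53 (AT4G23810) and STZ (AT1G27730). WRKY6 and STZ lie on chromosome 1 and the other genes on chromosome 4. The RefSeq gene table lists 67 WRKY genes, of which 6 were named by the probe annotation. The other WRKY genes were not analysed here.

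WRKY proteins are plant transcription factors that carry a DNA-binding domain with a zinc finger and bind the W-box of promoters. Many are switched on within minutes to hours of wounding, touch, salt or contact with microbes, often downstream of mitogen-activated protein kinases, and several regulate one another. STZ, also known as ZAT10, is a C2H2 zinc finger protein with a repressor motif, known as an early response gene to salt, cold, drought, wounding and oxidative stress. In roots these genes are known both as stress reporters and, for WRKY6 and WRKY42, as regulators of phosphate transport.

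The 23 Affymetrix ATH1 arrays came from roots of Columbia seedlings grown for 5 days, with about 1000 roots per replicate. A SHR inducible line and a SCR inducible line, which carry switchable versions of the ground tissue regulators SHORT-ROOT and SCARECROW, were moved to medium with 1 micromolar Dex, a steroid that turns such proteins on. Each line was sampled at 0, 1, 3, 6 and 12 h with 2 biological replicates per time, and the 3 arrays of CEI cells (initials of cortex and endodermis, from which the ground tissue arises) came from a CYCD6 marker GFP line on standard medium with no Dex. The time-course cells are labelled as sorted by J0571, an enhancer trap that marks cortex and endodermis. The protocol text of the same samples describes cut roots put into extraction buffer, so the sources disagree on whether ground tissue or whole root was measured. The time-course arrays are called ground tissue below after the J0571 label, which does not settle this. The promoters that drive the inducible proteins, and any further mutations in the lines, were not given in the sources used here. Neither line was followed after transfer to Dex-free medium, so Dex and the transfer itself cannot be told apart.

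Values are MAS5 signals, a measure of brightness on a linear scale, and are comparable between arrays for 1 probe set but not between probe sets. Array medians ran from 62.9 to 79.9. Replicates correlated across tested probe sets at 0.863 for 6 h of the SCR line, at 0.914 or more in the other time-course groups and at 0.948 or more in CEI cells. A bacterial control transcript, dap, read 171 to 1611 on SHR line arrays, at most 3.36 on SCR line arrays and at most 5.62 in CEI cells, so this technical difference coincided with line. The signal at the 3' end of a ubiquitin control transcript was 5074 to 6036 in the SHR line at 12 h, 4310 to 5519 in CEI cells and 13366 to 14265 in the SCR line at 12 h. Its ratio of 3' to 5' signal was 7.21 to 7.46, 7.42 to 9.64 and 3.78 to 4.24 in these groups in turn. For a GAPDH control transcript that ratio was 3.17 to 7.90, 5.69 to 15.7 and 12.9 to 13.7. Of 35 listed cell type marker loci, 8 were tested: 6 of 14 for ground tissue, 2 of 7 for epidermis and none of 10 for stele or of 4 for root cap. The summed signal of the ground tissue markers was 1528 to 1774 in CEI cells and 956 to 3222 at 0 h of both lines, over probe sets of unlike brightness. Singly, AT1G62500 and AT1G09750, entered on the ground tissue list, were called lower in CEI cells (log2 differences -1.53 and -1.83) and AT4G28100 of that list higher (1.16). That of the epidermis markers was 149 to 432 in CEI cells and 35.1 to 420.4 at 0 h. SHR, SCR and CYCD6;1 themselves were not named by the annotation, so the labels were not checked through them.

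Of the 7 genes, 6 passed the filter on low values, which asked for a signal above the array's own 40th percentile (31.0 to 43.6) on at least 2 arrays. WRKY42, a regulator of phosphate transporters, did not pass on any array. Its signal ran from 1.56 to 17.0 over the 23 arrays, and it was not tested. WRKY6, WRKY20, WRKY22 and STZ were above the percentile on all 23 arrays and WRKY53 on 22. WRKY47 was above it on 18 arrays and below on both SHR line arrays at 12 h and all 3 CEI arrays, so its low values there are near background.

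**Figure D1:**
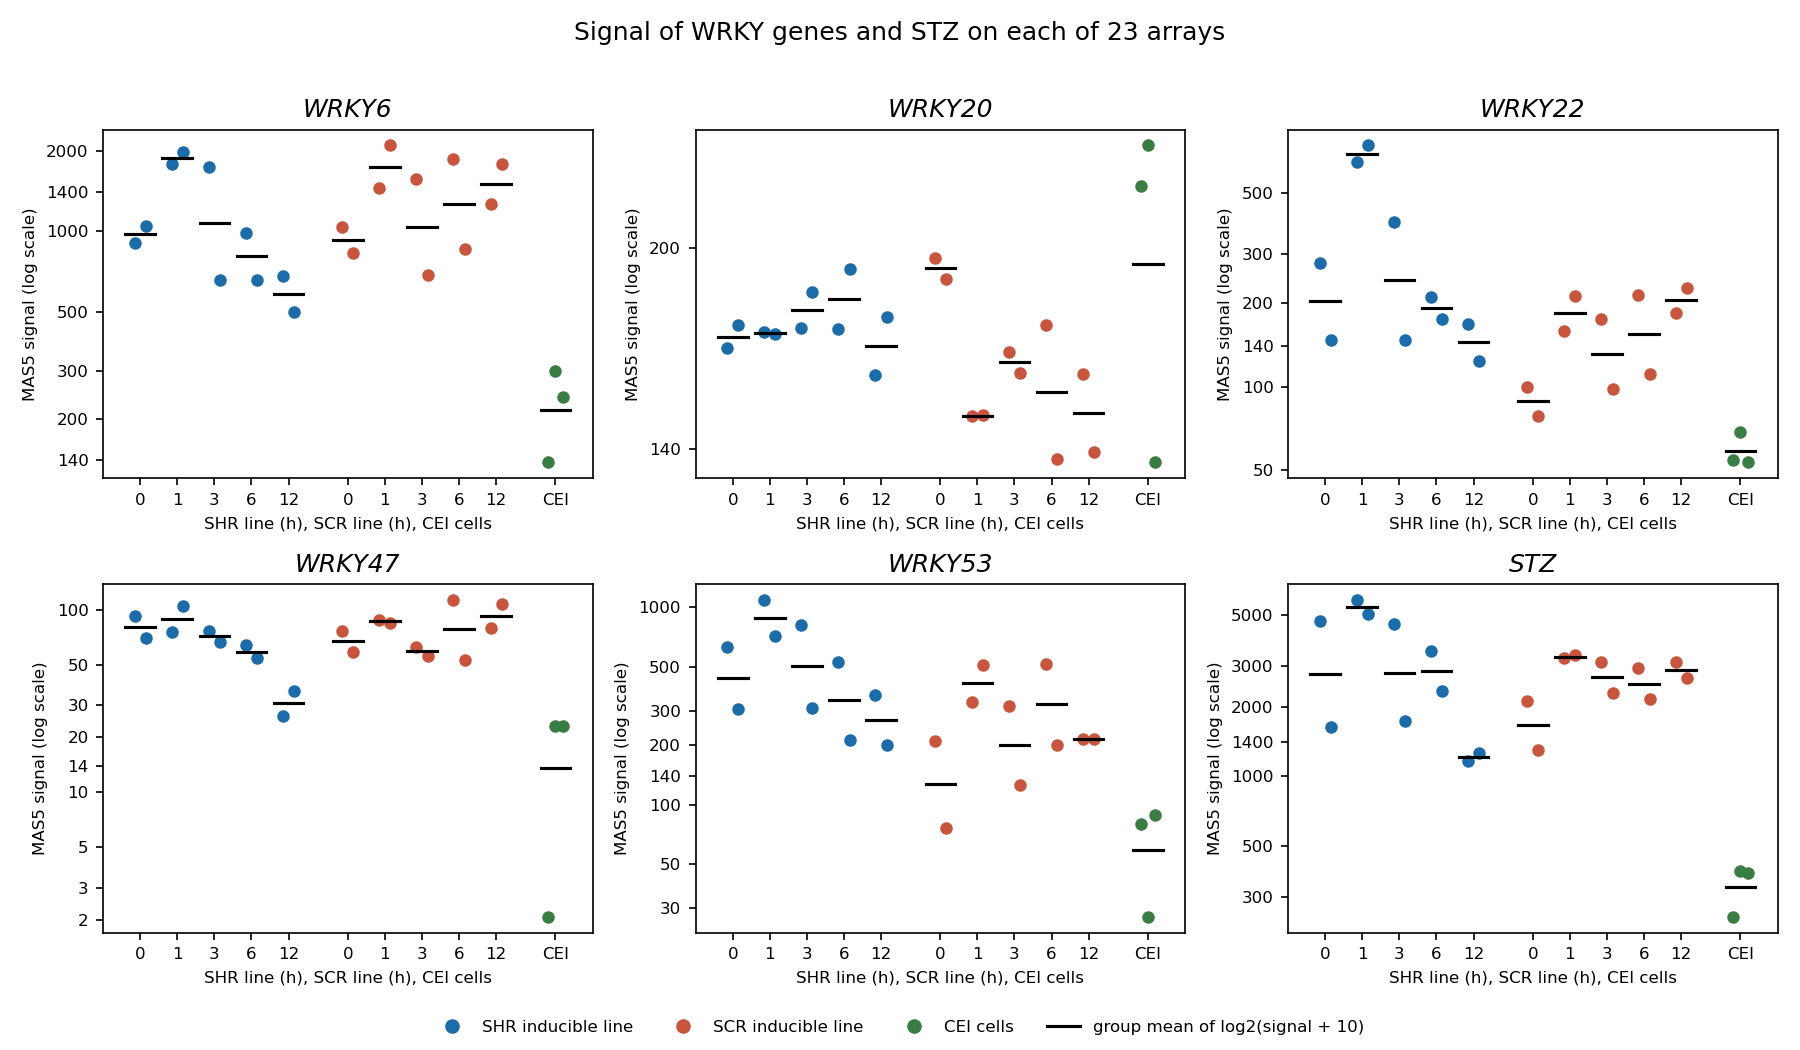
MAS5 signal (log scale) of the 6 tested genes on each array, by time on Dex in the SHR line (blue) and SCR line (red) and in CEI cells (green). Black bars are group means of log2(signal + 10). The CEI arrays lie below all ground tissue arrays for WRKY6, WRKY22, WRKY47 and STZ, overlap them for WRKY53, and spread over their whole range for WRKY20.

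STZ had its highest signals in the SHR line at 1 h and its lowest in CEI cells. In the SHR line the 2 arrays read 4688 and 1637 at 0 h, 5794.5 and 5009 at 1 h, 4543 and 1732 at 3 h, 3482 and 2346 at 6 h, and 1163 and 1262 at 12 h. In the SCR line they read 2107 and 1302 at 0 h, 3244 and 3336 at 1 h, 3128 and 2296 at 3 h, 2927 and 2161 at 6 h, and 3129 and 2662 at 12 h. The 3 CEI arrays read 246, 389 and 380.4. By mean log2 level the order began with the SHR line at 1 h and the SCR line at 1 h. It ended with the SCR line at 0 h, the SHR line at 12 h and CEI cells. The SHR line at 1 h, the SHR line at 12 h and CEI cells were each apart from every other group. The SCR line at 1 h lay within the ranges of the SHR line at 0, 3 and 6 h. The SCR line at 0 h overlapped the SHR line at 0 and 3 h. The 6 groups in the middle of the order overlapped their neighbours among themselves. Replicate 1 was far above replicate 2 in the SHR line at 0 and 3 h.

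WRKY53, known in leaves as a promoter of senescence and as an early gene of the oxidative and wound response, had wider replicate spread than STZ. Its order of groups differed from that of STZ except at the ends. WRKY53 was highest by mean log2 level in the SHR line at 1 h and lowest in CEI cells. Its SHR line arrays read 629.5 and 304 at 0 h, 1091 and 719 at 1 h, 818 and 310.4 at 3 h, 529.6 and 214 at 6 h, and 359.8 and 202 at 12 h. Its SCR line arrays read 209 and 76.2 at 0 h, 332 and 509.6 at 1 h, 317 and 125 at 3 h, 515 and 202 at 6 h, and 215 and 214 at 12 h. CEI cells read 80.3, 27.1 and 88.6. Every group overlapped the next lower one, so the order of neighbouring groups was within their spread. The lowest ground tissue array, 1 of the SCR line at 0 h, lay below 2 of the 3 CEI arrays.

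WRKY22, which acts downstream of the kinase cascade that responds to bacterial flagellin, stood highest in the SHR line at 1 h, apart from every other group. The SHR line arrays read 279.7 and 147 at 0 h, 645 and 742 at 1 h, 392 and 148 at 3 h, 211 and 175 at 6 h, and 168 and 124 at 12 h. In the SCR line they read 99.9 and 78.4 at 0 h, 159 and 213 at 1 h, 175 and 97.96 at 3 h, 215 and 111 at 6 h, and 184 and 227 at 12 h. CEI cells read 54.5, 68.6 and 53.4. All groups between the highest and the SCR line at 0 h overlapped their neighbours. CEI cells lay apart below the SCR line at 0 h.

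WRKY6, a factor of senescence and defence that also represses the phosphate exporter gene PHO1, was highest at 1 h in both lines and lowest in CEI cells. Its SHR line arrays read 907 and 1052 at 0 h, 1792 and 1977 at 1 h, 1739.6 and 659 at 3 h, 990.0 and 658 at 6 h, and 681 and 502 at 12 h. Its SCR line arrays read 1036 and 834 at 0 h, 1452 and 2098 at 1 h, 1567 and 691 at 3 h, 1861 and 859.7 at 6 h, and 1264 and 1793 at 12 h. CEI cells read 137, 301 and 241. The 10 ground tissue groups overlapped their neighbours in order, and only CEI cells stood apart from the group above them.

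WRKY47 was low in CEI cells and in SHR arrays at 12 h. Its SCR line arrays read 76.5 and 58.8 at 0 h, 88.1 and 84.7 at 1 h, 62.3 and 56.0 at 3 h, 113 and 52.7 at 6 h, and 79.1 and 107 at 12 h. In the SHR line it read 92.5 and 69.8 at 0 h, 75.6 and 105 at 1 h, 76.2 and 66.7 at 3 h, 64.2 and 54.1 at 6 h, and 26.3 and 35.9 at 12 h. CEI cells read 2.09, 23.2 and 23.04. The SHR line at 12 h and CEI cells lay apart below all other groups, and as both were under the filter level they were not ordered against each other. WRKY20 was the steadiest of the 6 genes: its lowest signal was 137, its median 172 and its highest 240.2, and both the lowest and the highest were CEI arrays. Its SD within groups was 0.19 on the log2 scale, smaller than that of all but 4.64% of tested probe sets. That of WRKY53 was 0.75 and larger than that of 93.8%, with a median of 0.39 over all tested probe sets.

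In CEI cells 5 of the 6 tested genes were called lower than in uninduced ground tissue, WRKY47 with CEI signals under the filter level. The 3 CEI arrays were set against the averaged 0 h groups in the limma fit, where a gene was called at a Benjamini-Hochberg adjusted p below 0.05. STZ fell by 2.66 on the log2 scale (SE 0.35, adjusted p 0.000107, 6.30-fold lower) and WRKY6 by 2.09 (SE 0.37, adjusted p 0.00108). WRKY53 fell by 1.84 (SE 0.50, adjusted p 0.0158) and WRKY22 by 1.08 (SE 0.32, adjusted p 0.0241). WRKY47 was called lower (adjusted p 0.00107), but its 3 CEI arrays lay under the filter level, which it passed through ground tissue arrays alone. Its estimate of -1.82 ran from -2.61 at a pseudocount of 1 to -0.92 at 50, so the size of its fall was not measured. WRKY20 did not pass, with a log2 difference of 0.09 and a 95% interval of -0.30 to 0.49. Over all 15983 tested probe sets 10.7% were called lower, and the median log2 difference was 0.04 against -1.83 for the 6 genes, WRKY47 included.

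An exact two-sided permutation test set 3 arrays against 4, where 0.0286 is the smallest p possible. STZ, WRKY6 and WRKY47 each gave 0.0286 in it, unadjusted. The same exact test gave 0.0571 for WRKY22, 0.114 for WRKY53 and 0.743 for WRKY20, also unadjusted. Adjusted by Benjamini-Hochberg over the 6 genes, it gave 0.0571 for STZ, WRKY6 and WRKY47. For 4 of the 6 genes (WRKY6, WRKY22, WRKY47 and STZ) all 3 CEI arrays were below all 20 ground tissue arrays, which held for 6.13% of tested probe sets. In this count and in the exact test the CEI values of WRKY47 were under the filter level. Without replicate 1 of the SHR line at 0 h, or without replicate 1 of the SCR line at 0 h, WRKY22 and WRKY53 lost their calls and 3 genes stayed called. WRKY22 also lost it without CEI replicate 1 or 3, and WRKY53 without CEI replicate 2, with adjusted p from 0.0610 to 0.0979 over these cases in limma. The CEI group differs from the time course in marker line and medium as well as in cell type, and fewer cells of a type and less RNA per cell cannot be told apart in such samples. The ubiquitin control was 4310 to 5519 in CEI cells and 7450.3 to 13219 at 0 h, and its part in the result was not tested.

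Against the SHR line at 12 h, where most of these genes were low, only STZ was called lower in CEI cells. STZ fell by 1.84 (SE 0.41, adjusted p 0.0193 in limma), and 2.06% of tested probe sets were called lower. WRKY6 differed by -1.40 (adjusted p 0.1002), WRKY22 by -1.17 (0.108 in limma), WRKY53 by -2.02 (adjusted p 0.0757), WRKY47 by -0.79 (adjusted p 0.328) and WRKY20 by 0.20 (adjusted p 0.744). The call for STZ was lost without either SHR line array at 12 h and without CEI replicate 1, with adjusted p up to 0.145 in limma. WRKY53 passed with only the arrays of the contrast in the fit (adjusted p 0.0226), as did WRKY6 (0.0317), and with line and replicate number as a random block (0.0445).

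Against the SCR line at 12 h, 5 of the 6 genes were lower in CEI cells, where 14.4% of tested probe sets were called lower. STZ fell by 3.08 (adjusted p 6.54e-05 in limma), WRKY6 by 2.75 (adjusted p 0.000309). WRKY47 was called lower (adjusted p 0.000832), again with its CEI arrays under the filter level. Its estimate of -2.11 ran from -2.94 to -1.13 over the same pseudocounts. WRKY53 fell by 1.70 (adjusted p 0.0381) and WRKY22 by 1.65 (adjusted p 0.00437). WRKY20 had a log2 difference of 0.36 (adjusted p 0.230). Without replicate 2 of the SCR line at 12 h the calls for WRKY22 and WRKY53 were lost, leaving 3. WRKY53 was also lost without replicate 1 of that group, without CEI replicate 2 and at a pseudocount of 50, with adjusted p from 0.0552 to 0.148 over these cases.

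**Figure D2:**
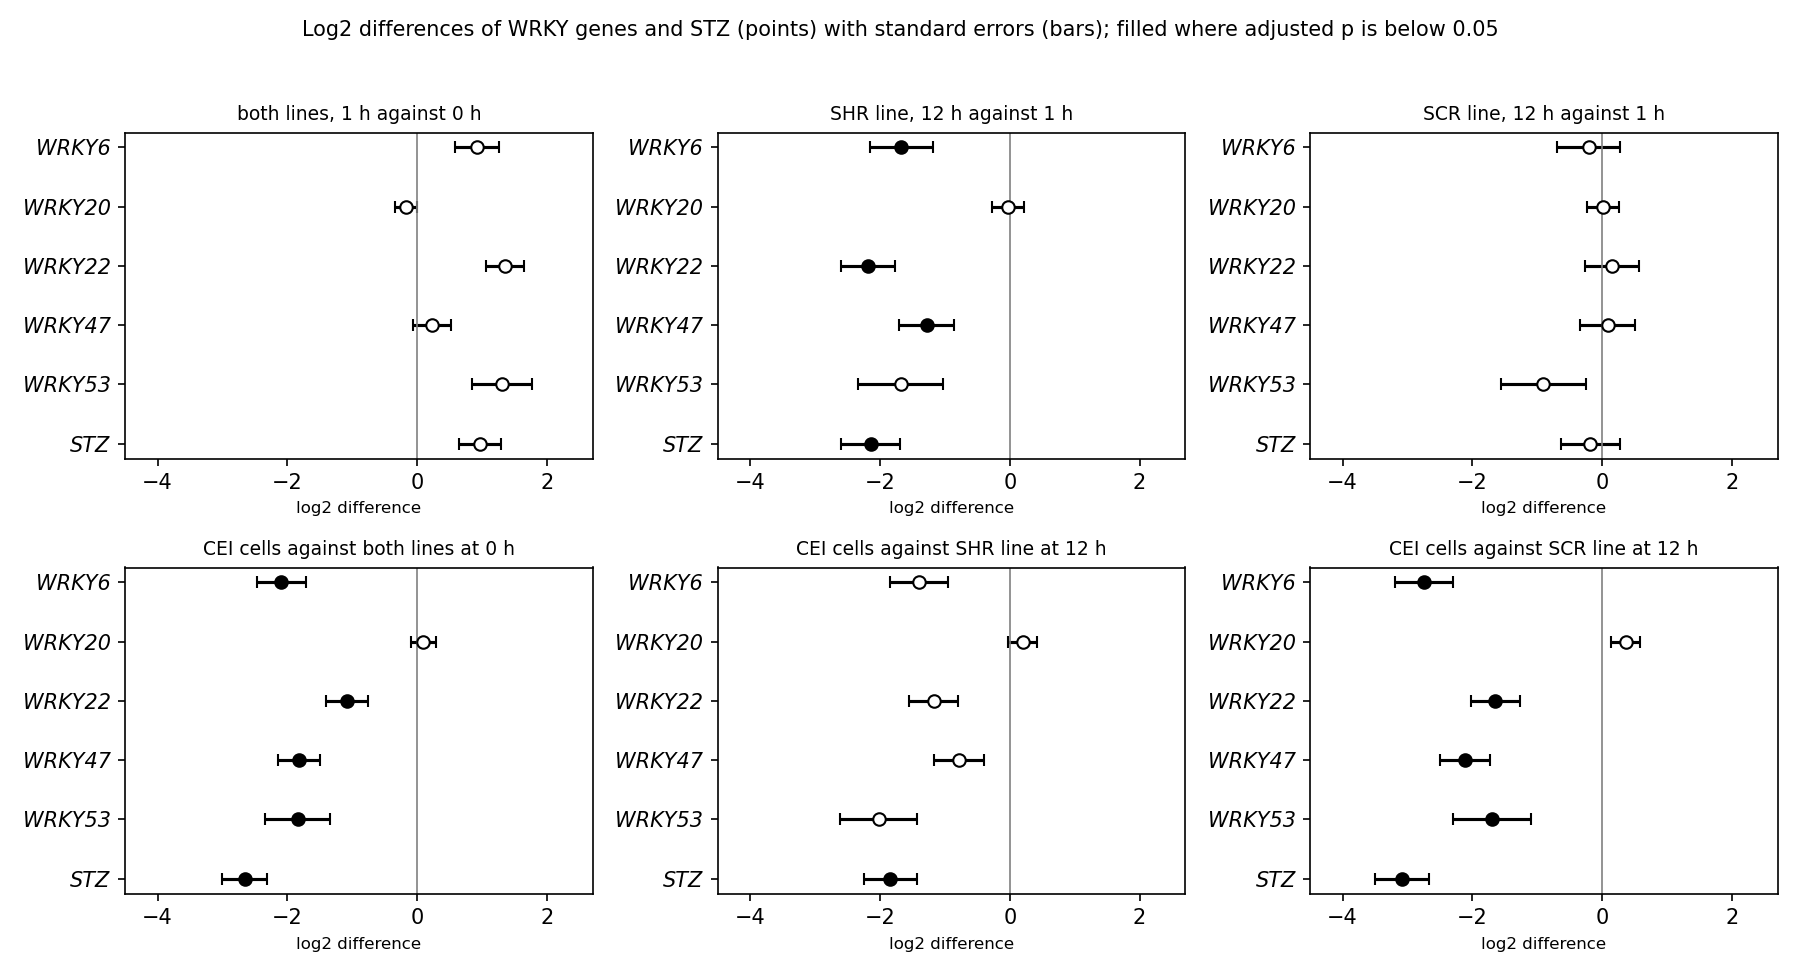
Log2 differences (points) with standard errors (bars) of the 6 tested genes in 6 comparisons, filled where the adjusted p is below 0.05. The estimates for 5 of the genes lie below 0 in every comparison with CEI cells and in the SHR line between 1 and 12 h, while WRKY20 stays near 0.

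After 1 h on Dex the estimates of 5 of the 6 genes were above those at 0 h in both lines, but no gene was called. The largest in the SHR line was WRKY22, with a log2 difference from 0 h of 1.72 (SE 0.42, adjusted p 0.215) for SHR and 0.98 (adjusted p 0.640) for SCR in limma. WRKY53 differed by 1.00 and 1.62, STZ by 0.96 and 0.99, and WRKY6 by 0.94 and 0.90. Medians of the 6 genes were 0.95 and 0.94, against -0.13 and -0.06 over all tested probe sets. The share of all probe sets with estimates above 0 in both lines was not counted. All 1 h arrays were above all 0 h arrays of the same line for 4 of the 6 genes (WRKY6, WRKY22, WRKY53 and STZ) in the SHR line, as for 19.4% of tested probe sets. In the SCR line this held for the same genes and WRKY47, as for 16.6%. In both lines at once it held for 4 genes, as for 6.44%.

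With both lines in 1 contrast, the 1 h difference was 1.35 for WRKY22 (SE 0.29, adjusted p 0.0985 in limma), 1.31 for WRKY53 (adjusted p 0.155), 0.97 for STZ (adjusted p 0.143), 0.92 for WRKY6 (adjusted p 0.161) and 0.23 for WRKY47 (adjusted p 0.673). WRKY20 had -0.17 (adjusted p 0.567). Their median was 0.95 against -0.07 over all tested probe sets. At an unadjusted p below 0.05 the fit gave 4 of the 6 genes and 22.1% of all probe sets, 2 genes and 15.9% for SHR alone, and 3 genes and 7.39% for SCR alone. No probe set was called at 1 h in the SHR line (0%), the SCR line (0%) or both together (0%). With line and replicate number as a random block, WRKY22 was called in both lines together (adjusted p 0.0229, with 457 probe sets called in all) and in the SHR line alone (adjusted p 0.0473, 76 in all). Without both arrays of the SCR line at 6 h it was called in both lines together (adjusted p 0.0176, 1330.0 in all). Leaving out either array of the SHR line at 3 h or of the SCR line at 6 h also gave that call.

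No gene of the 6 was called at a later time against 0 h. The share of all tested probe sets called at 3, 6 and 12 h was 0%, 0.0125% and 0% for the SHR line, and 0%, 0% and 0.00626% for SCR. For both lines together it was 0.0188%, 0.0626% and 0.0438% at 3, 6 and 12 h in turn. At an unadjusted p below 0.05, STZ and WRKY47 were lower in the SHR line at 12 h than at 0 h, by log2 differences of -1.19 and -1.15, as 8.8% of all probe sets differed there. Both 12 h arrays of WRKY47 in that line lay under the filter level, and its estimate ran from -1.36 to -0.69 over the alternatives. The moderated F-test over a line's time course called none of the 6, with 0.0188% of tested probe sets called for SHR and 0% for SCR. The lowest adjusted p of that F-test was 0.118, for WRKY22 in the SHR line, where 3 of the 6 genes and 17.2% of all probe sets had an unadjusted p below 0.05. It called 1 of the 6 without either array of the SHR line at 3 h (78 and 147 probe sets in all, in place of 3) or of the SCR line at 6 h (1112 and 1139).

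Between 1 and 12 h in the SHR line, 4 of the 6 genes were called lower. WRKY22 fell by 2.19 on the log2 scale (SE 0.42, adjusted p 0.0138 in limma) and STZ by 2.14 (SE 0.45, adjusted p 0.0144). WRKY6 fell by 1.67 (SE 0.49, adjusted p 0.0319). WRKY47 was called lower (adjusted p 0.0458), with both 12 h arrays under the filter level and an estimate of -1.28 that ran from -1.50 at a pseudocount of 1 to -0.78 at 50. WRKY53 did not pass, at -1.68 (SE 0.65, adjusted p 0.0749 in limma), and WRKY20 one of -0.03 with a 95% interval of -0.56 to 0.49. Of all tested probe sets 7.66% were called lower, and the median was 0.14 against -1.67 for the 6 genes. Both 12 h arrays lay below both 1 h arrays for 5 of the 6 genes, all but WRKY20, as for 27.5% of tested probe sets. The highest group mean of the SHR time course was at 1 h for these same 5 genes and for 28.8% of all tested probe sets.

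The 2 epidermis markers summed to 312 to 428 in the SHR line at 1 h and 22.9 to 236 at 12 h, the 6 ground tissue markers to 1333 to 2315 and 1756 to 3025, and the ubiquitin control read 11241 to 12897 and 5074 to 6036. Their part in the result was not tested. Leaving out 1 array of the contrast leaves a group of 1, which is then taken to vary as the other groups do. None of the 6 genes was called without replicate 1 or replicate 2 of the SHR line at 1 h or without its replicate 2 at 12 h, and 1 (WRKY22) without its replicate 1 at 12 h. Over all probe sets, calls in either direction were then between 0 and 165, in place of 2862. WRKY47 was just under the threshold and lost its call without any 1 of 16 arrays (all but the 0 h arrays of the SHR line and the 6 h arrays of the SCR line among the time course), at a pseudocount of 1 (adjusted p 0.123) and with no filter on low values (adjusted p 0.0695). WRKY53 passed with only the arrays of the contrast in the fit (adjusted p 0.0225) and with line and replicate number as a random block (adjusted p 0.0248).

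In the SCR line no gene was called between 1 and 12 h, none of the 6 had an unadjusted p below 0.05, and no probe set was called (0%). The log2 differences there were -0.91 for WRKY53, -0.21 for WRKY6, -0.19 for STZ, 0.01 for WRKY20, 0.08 for WRKY47 and 0.14 for WRKY22. The highest group mean of that line was at 1 h for WRKY6, WRKY53 and STZ, at 12 h for WRKY22 and WRKY47, and at 0 h for WRKY20. Of all tested probe sets, 19.3%, 19% and 33.7% had their highest mean of that line at 1, 12 and 0 h in turn. With both lines together none was called (lowest adjusted p 0.0890 in limma, for STZ), where 0.763% of probe sets were, and 4 of the 6 had an unadjusted p below 0.05, as had 22.4% of all probe sets. STZ and WRKY22 passed there without either or both arrays of the SCR line at 6 h, where 1495 to 1504 probe sets were called in place of 122.

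At 12 h the estimated change from 0 h was below 0 in the SHR line and above 0 in the SCR line for 5 of the 6 genes, all but WRKY20. The share of all probe sets with these signs was not counted. Medians of the 6 genes were -0.70 and 0.70 in turn, against 0.02 and -0.11 over all tested probe sets. For WRKY6, WRKY47 and STZ both 12 h arrays were below both 0 h arrays in the SHR line and above both in the SCR line, a pattern of 3 of the 6 genes and of 6.14% of tested probe sets. Both SHR line arrays of WRKY47 at 12 h lay under the filter level, so the sizes of its changes there were not measured. Its SHR change minus SCR change, given next, ran from -1.81 to -0.97 over the alternatives. The SHR change minus the SCR change at 12 h was -1.98 for STZ (SE 0.64, adjusted p 0.353), -1.59 for WRKY22 (adjusted p 0.367), -1.55 for WRKY47 (adjusted p 0.367), -1.42 for WRKY6 (adjusted p 0.410) and -1.39 for WRKY53 (adjusted p 0.498) in limma. These differences of changes were not called for any gene at 1, 3, 6 or 12 h, nor for any probe set (0% each), and 3 of the 6 had an unadjusted p below 0.05 at 12 h, as had 12.2% of all probe sets. The F-test of that difference over all times called none either (0%), and at an unadjusted p below 0.05 it gave WRKY22, STZ and 7.32% of all probe sets.

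Set side by side at 12 h, WRKY47 was lower in the SHR line by a log2 difference of -1.32 (SE 0.42, adjusted p 0.0470 in limma), where 7.38% of tested probe sets were called lower. Its SHR arrays lay under the filter level, and the estimate ran from -1.55 to -0.82 over pseudocounts of 1 and 50. WRKY6 had -1.35 (adjusted p 0.0703) and STZ -1.25 (adjusted p 0.0735). Both SHR arrays were below both SCR arrays for 4 of the 6 genes (WRKY6, WRKY22, WRKY47 and STZ), as for 25.5% of tested probe sets. WRKY22 had -0.48 (adjusted p 0.442), WRKY53 0.32 (adjusted p 0.766) and WRKY20 0.16 (adjusted p 0.683). The call for WRKY47 was lost without any 1 of 18 time-course arrays, all but the SCR line's at 6 h, and at a pseudocount of 1 (adjusted p 0.132), with no filter (adjusted p 0.0730) and, since it is then left out, with a filter at the 60th percentile. On the arrays of the contrast alone STZ (adjusted p 0.00953) and WRKY6 (0.0145) passed. STZ also passed without any 1 array of the SHR line at 0 or 3 h, and WRKY6 without any 1 of the SHR line at 3 h or the SCR line at 6 h. The ubiquitin control signal was also lower in the SHR line at 12 h, as given above. There the ratio of 3' to 5' signal was higher for ubiquitin and lower for GAPDH than in the SCR line. The part of these controls in the differences was not tested.

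**Figure D3:**
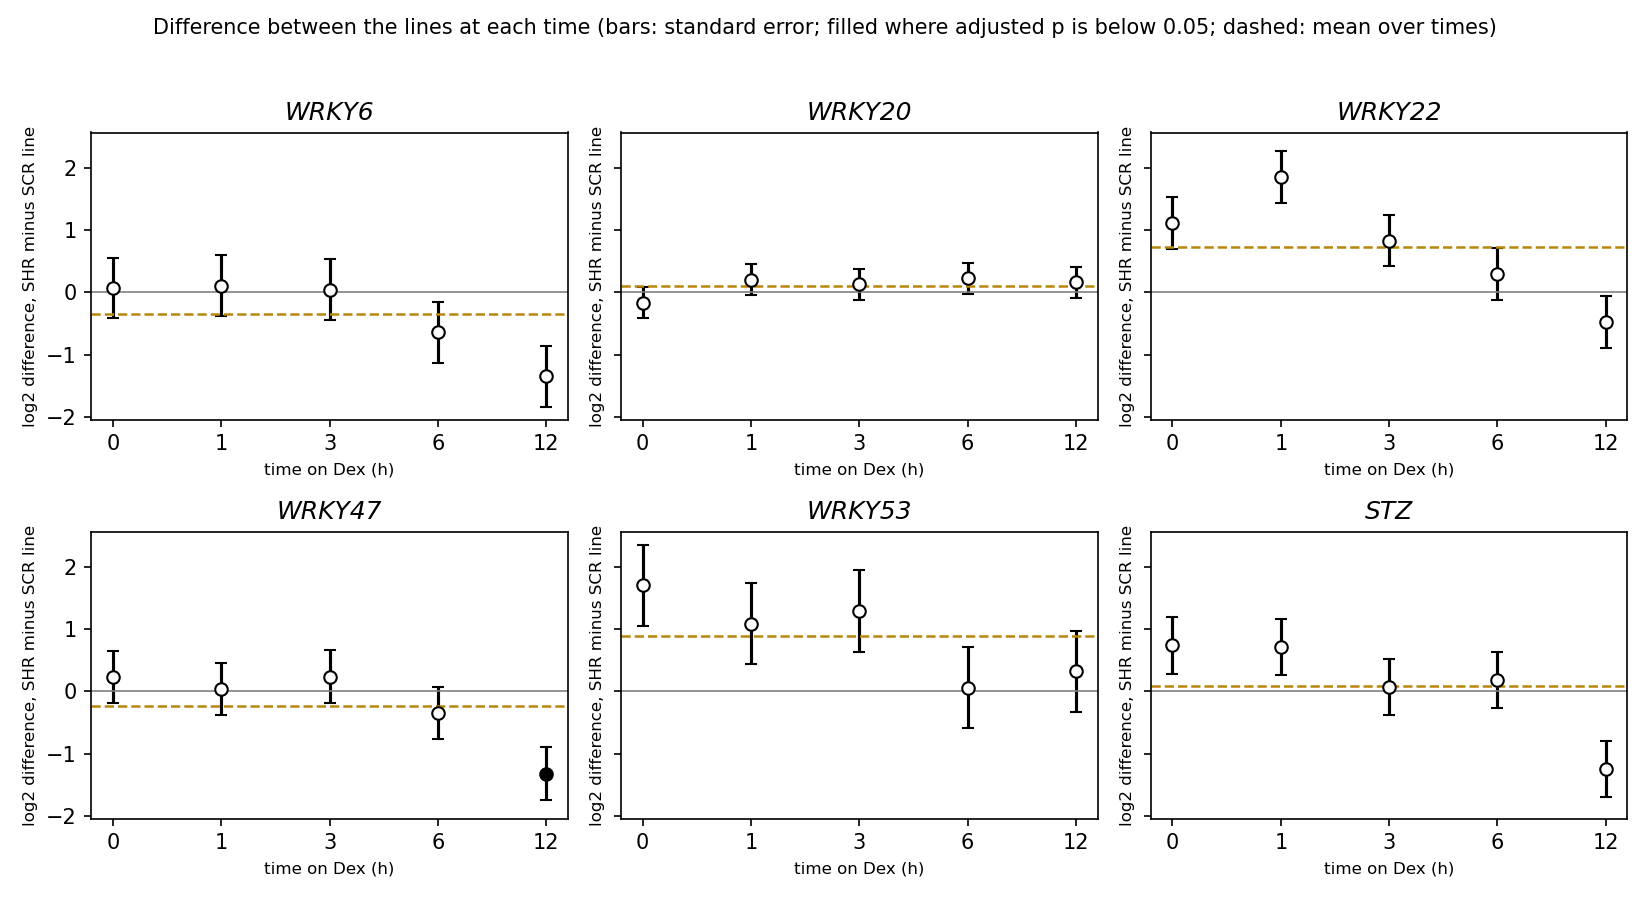
Log2 difference, SHR line minus SCR line, at each time on Dex for the 6 tested genes (bars: standard error, dashed line: mean over the 5 times, filled where the adjusted p is below 0.05). WRKY22 runs from 1.85 at 1 h to -0.48 at 12 h, and WRKY47 at 12 h is the only filled point.

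Averaged over the 5 times, WRKY22 and WRKY53 were higher in the SHR line and the other genes did not pass. WRKY22 ran from 124 to 742 with a median of 193 in SHR arrays, against 78.4 to 227 with a median of 167 in SCR arrays. Its mean log2 difference was 0.72 (SE 0.19, adjusted p 0.0109 in limma). WRKY53 ran from 202 to 1091 (median 445) and from 76.2 to 515 (median 214), with a mean log2 difference of 0.89 (SE 0.29, adjusted p 0.0368). The ranges of the lines overlapped for both genes, and 12.3% of tested probe sets were called higher. The exact two-sided permutation test of line within each time point, run for 6 genes, gave p 0.0267 for WRKY22 and 0.0175 for WRKY53, unadjusted. Adjusted by Benjamini-Hochberg over the 6 genes, that test gave 0.0802 for both. It takes the arrays of a line at different times as independent. Replicate differences correlated above 0.1 between most times within a line, so its p-values may be too low.

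The difference was not even over time. At 0, 1 and 12 h in turn it was 1.11, 1.85 and -0.48 for WRKY22, and 1.71, 1.09 and 0.32 for WRKY53. At single times no gene was called before 12 h, and the called share of all probe sets was 0.00626%, 0.138%, 0.144% and 0.325% at 0, 1, 3 and 6 h in turn. With line and replicate number as a random block, both mean differences lost their calls (adjusted p 0.0860 for WRKY22 and 0.141 for WRKY53). WRKY53 also lost its call after quantile normalization (adjusted p 0.0591), median centring (adjusted p 0.0641), without the 12 h arrays (adjusted p 0.0803) and without any 1 of 11 arrays. Those were replicate 1 of the SHR line at each time, replicate 1 of the SCR line at 1 and 12 h and its replicate 2 at 0, 3, 6 and 12 h, with adjusted p of at most 0.0821. The dap control differed between the lines on every array, and its part in these differences was not tested.

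WRKY6, WRKY22, WRKY47, WRKY53 and STZ varied together with CEI cells included, and less closely among the ground tissue groups alone. WRKY20 did not follow them. Over the 11 group means the 10 pairs among these 5 genes had Pearson r from 0.656 to 0.958, and from 0.322 to 0.888 over the 10 ground tissue groups. Deviations of single arrays from their group mean were correlated as well, with r from 0.137 for WRKY47 and WRKY53 to 0.809 for WRKY6 and WRKY22. The 5 pairs with WRKY20 had r from -0.651 to -0.323 over the 11 group means and from -0.513 to -0.0761 over the 10 ground tissue groups. In CEI cells WRKY47 was under the filter level. Over 8844 other tested probe sets with 1 annotated gene, the median r over the 11 group means was -0.101 with WRKY53 and -0.186 with STZ. These values share arrays and are given as a description. The first replicate was the higher for all 6 genes in the SCR line at 0, 3 and 6 h and for 5 of 6 in the SHR line at 3 and 6 h. In these groups it was the higher for 45.3% to 51.5% of all tested probe sets. It was the higher for 4 of 6 in the SHR line at 0 h and 3 of 6 at 1 and 12 h. In the SCR line it was the higher for 1 of 6 at 1 h and 3 of 6 at 12 h. In the SHR line at 3 h the median gap was 1.36 on the log2 scale, against -0.07 over all tested probe sets.

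Of 106 loci listed as partners, targets or fellow stress genes of these factors, the annotation named 7 and 6 were tested. They were PUB22, PUB23 and PUB24 of the defence list, SAG101 and SAG29 of the senescence list, and AT3G53600, entered on the list of zinc fingers related to STZ. EFR, the immune receptor for a bacterial elongation factor, was named but below the filter. The lists of kinases, early AP2/ERF factors, jasmonate, touch and heat shock genes had no tested gene.

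PUB22, PUB23 and PUB24 are U-box ubiquitin ligases that dampen immune signalling. All 3 were lower in CEI cells than at 0 h. PUB23 read 157 to 277 in CEI cells and 622 to 1538 at 0 h of both lines, a log2 difference of -2.19 (SE 0.34, adjusted p 0.000382 in limma). PUB22 fell by 1.61 (adjusted p 0.00293) and PUB24 by 1.52 (adjusted p 0.0138). Between 1 and 12 h in the SHR line PUB22 fell by 1.79 (adjusted p 0.0206) and PUB23 by 1.76 (adjusted p 0.0221), while PUB24 had -1.08 (adjusted p 0.139). Their 1 h differences with both lines together were 1.02, 1.06 and 0.94, none called. The calls of the listed genes were not followed singly through the alternatives.

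AT3G53600 was lower in the SHR line at 12 h. Its 12 h arrays read 168 and 180.1 for SHR against 1856 and 1957 for SCR, a log2 difference of -3.38 (SE 0.57, adjusted p 0.00165 in limma), and PUB22 also passed there (log2 difference -1.70, adjusted p 0.0185). In the SHR line it fell by 2.50 between 1 and 12 h (adjusted p 0.0179), and in CEI cells it fell by 1.99 against 0 h (adjusted p 0.00452). SAG101, a lipase-like partner in immune signalling named for senescence, read 113 to 134 in the SHR line at 1 h and 38.6 to 61.4 at 12 h, a fall of 1.17 (adjusted p 0.0274). SAG29, a sugar transporter gene, did not pass in that comparison (log2 difference -0.18). Of the 6 listed genes 4 were called lower in CEI cells against 0 h (10.7% of all probe sets), 1 against the SHR line at 12 h (2.06%) and 5 against the SCR line at 12 h (14.4%). In the SHR line 4 were called lower at 12 h than at 1 h (7.66%). Most calls over all probe sets in that comparison were lost when 1 of its arrays was left out, as given above. Averaged over times, SAG29 was higher (12.3% of all probe sets) and AT3G53600 lower (10.3%) in the SHR line.

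**Figure D4:**
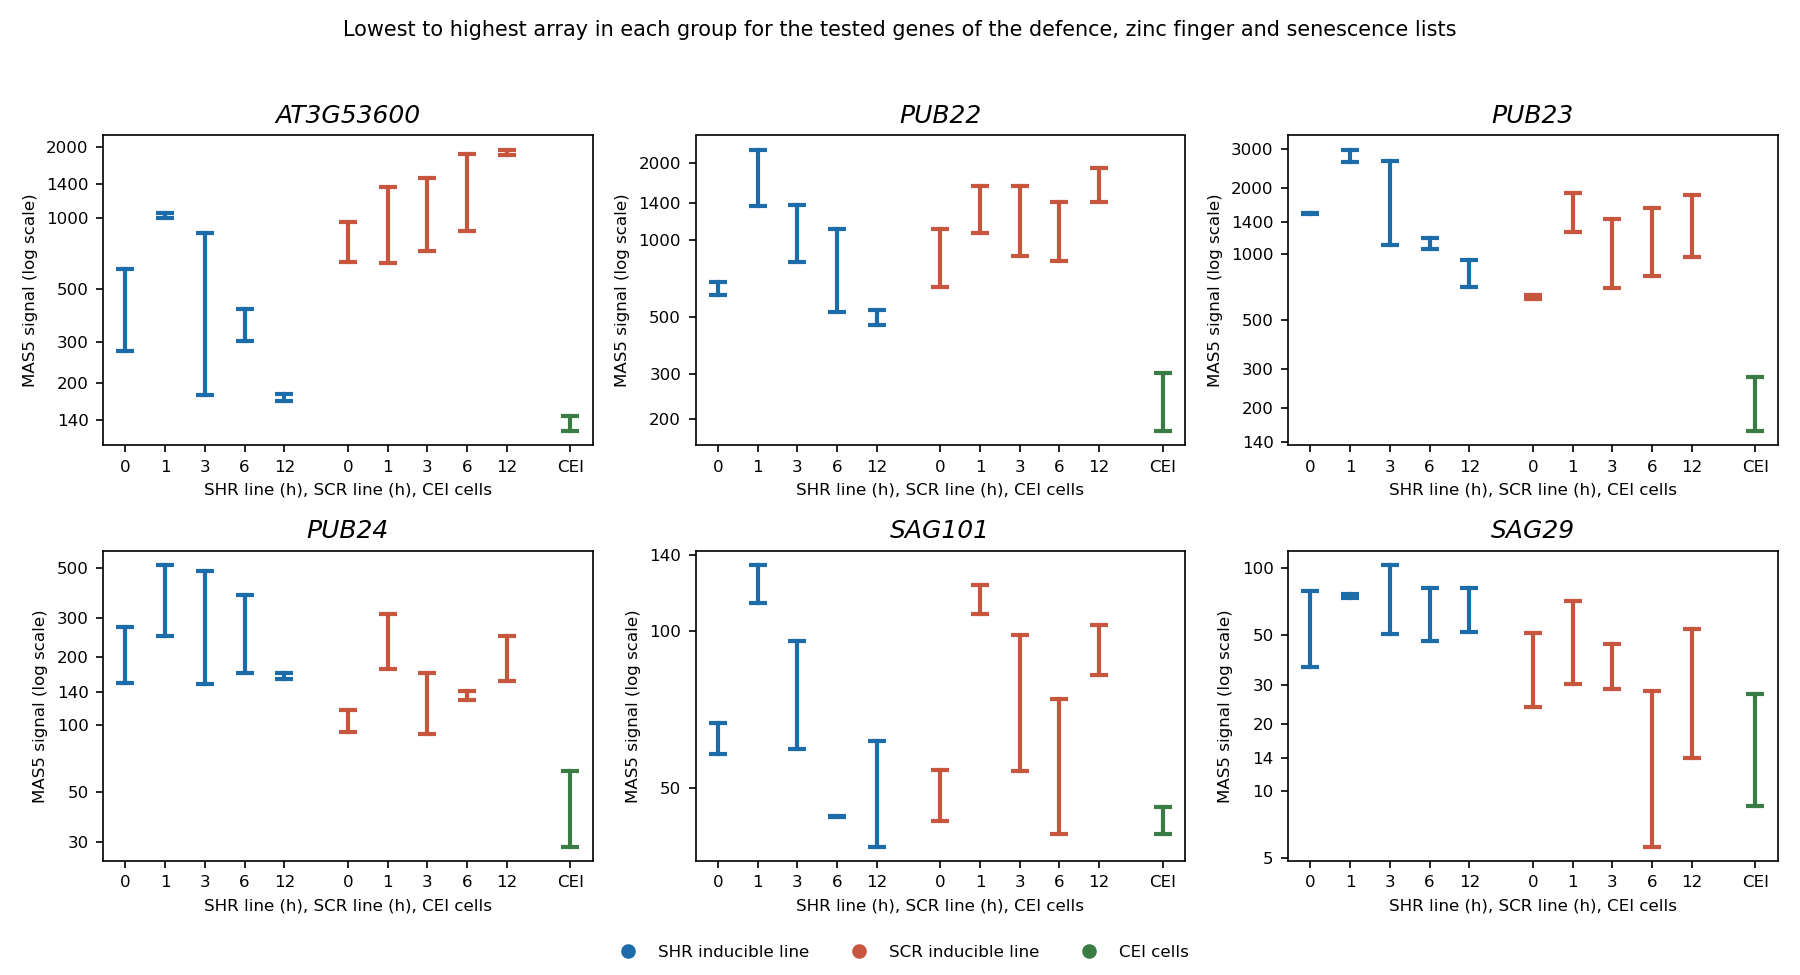
MAS5 signal (log scale) of the 6 tested genes of the other lists, as the lowest to highest array of each group, by time on Dex in the SHR line (blue) and SCR line (red) and in CEI cells (green). AT3G53600 at 12 h reads 168 to 180.1 for SHR and 1856 to 1957 for SCR.

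The genes most like WRKY53 and STZ over the 11 group means were sought among 8844 tested probe sets with 1 annotated gene. For WRKY53 they were AT4G20000, AT5G52750, AT3G05270, AT1G25550 and AT2G24600, with Pearson r from 0.952 to 0.967, and 0.452% of candidates had r above 0.9. For STZ they were AT2G25450, AT3G30390, AT2G41640, AT5G44380 and AT5G48540, with r from 0.973 to 0.989, and 1.8% had r above 0.9. AT2G25450 read 262 to 578 in CEI cells and 974 to 3981 over the ground tissue arrays. These r values are descriptions over group means that share arrays and depth of signal.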

How the data were processed

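The deposited values are MAS5 signal intensity on a linear scale, made by the authors with MAS5, per the submitters' processing notes. Which version and which settings were used was not given in the sources used here. The RNA, per the labels, was amplified in 2 cycles and replicates are biological. The trimmed mean of each array was 250.0.

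All 64 control probe sets were set aside and log2(signal + 10) was used as it stood. Testing required a signal above its array's 40th percentile on at least 2 arrays (15983 of 22810). In limma 3.58.1 under R 4.3.3, lmFit and trended eBayes were run on 11 group means of 23 arrays (12 residual degrees of freedom), with 28 contrasts, 3 F-tests and Benjamini-Hochberg adjustment over all tested probe sets at 0.05, two-sided. The number of arrays limits the precision. The fit was tested on simulated data.

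Symbols were those of the platform's probe annotation: 13513 named 1 gene, 503 several and 8730 were not listed. Loci came from the RefSeq gene table. All genes of the rule are described. Listed genes are named by the smallest unadjusted p at 1 h in both lines, up to 3 a list, and genes alike by Pearson r. Members and lists were chosen with earlier results of these data known.

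Same-numbered replicates were checked for pairing. The correlation of replicate differences between times was above 0.1 in 9 of 10 pairs in the SHR line, 8 of 10 in the SCR line and 6 of 25 across lines, so the numbers were not taken as pairs across lines or throughout a line. A link within each line was run as an alternative, with line and number as a random block.

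Alternatives covered the pseudocount, filter, normalization, blocks, arrays in the fit, variance trend and each array left out. 1 was added after seeing the data: leaving out both arrays of the SCR line at 6 h.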

Additional observations from a re-analysis of the deposited data

Results flagged for a closer look

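At 12 h all SHR line arrays were below, and all SCR line arrays above, their own 0 h arrays for 3 genes. The SHR change minus the SCR change was -1.98 for STZ (95% interval -3.34 to -0.63), -1.55 for WRKY47 (-2.81 to -0.30) and -1.42 for WRKY6 (-2.87 to 0.03) on the log2 scale. Both 12 h arrays of WRKY47 in the SHR line lay under the filter level. The limma test of this difference called none of them (adjusted p 0.353, 0.367 and 0.410), and 6.14% of all tested probe sets showed the same pattern of arrays. Outlying arrays were not looked for within groups, since each holds 2 or 3. Among time-course arrays, replicate 1 of the SCR line at 6 h had the lowest mean correlation with the other arrays (0.847). Its replicate 2 had 0.930.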

How the results depend on the processing

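Only gene values at least 2 standard errors from 0 in the main fit were followed through the alternatives. Values nearer 0, where a sign turns most easily, were left out of these counts. None of the values followed reversed under any alternative run. Over all alternatives 80 values lost a call, 41 gained one and 1539 stayed on their side of the threshold, called or not. Permutation tests, by unadjusted p, kept their side of 0.05 under both other pseudocounts and both normalizations and were not rerun without single arrays. The count of genes called in the SHR line against the SCR line at 12 h, 1 as reported, was 0 at a pseudocount of 1, with no filter and with a filter at the 60th percentile, 2 with the replicate block and without both SCR 6 h arrays, and 3 when fitted on its own arrays alone. That of the mean line difference, 2 as reported, was 1 after quantile normalization, median centring or without the 12 h arrays, and 0 with the random block. The count between 1 and 12 h in both lines, 0 as reported, was 2 with the replicate block and without both SCR 6 h arrays, 3 with the random block and 4 on its own arrays alone. CEI cells against the SHR line at 12 h, 1 as reported, gave 2 with the replicate block and the random block and 3 on its own arrays alone. The SHR time course F-test, 0 as reported, gave 1 with the replicate block and without both SCR 6 h arrays and 2 with the random block. At 1 h, 0 as reported, the random block gave 1 in the SHR line and 1 in both lines, and leaving out both SCR 6 h arrays gave 1 in both lines. The replicate numbers were not taken as pairs, though replicate differences correlated above 0.1 for most pairs of times within a line, and the causes of these changes were not tested. Leaving out each array in turn gave 3 to 5 genes for CEI cells against 0 h, 3 to 6 against the SCR line at 12 h, 0 to 1 against the SHR line at 12 h, 0 to 4 for the SHR line between 1 and 12 h and 0 to 2 for both lines. It gave 0 to 2 for the lines at 12 h, 1 to 2 for their mean difference, and 0 to 1 for the SHR F-test and for 1 h in both lines. With the replicate block WRKY53 passed between 1 and 12 h in the SHR line and for CEI cells against the SHR line at 12 h, and STZ passed between the lines at 12 h. Few arrays per group and signals near background for WRKY47 limit all of these.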
